A study of Mus musculus with 15 samples.

Results

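The comparison set 3 RNA sequencing libraries of mouse ES-R1 embryonic stem cells with Vprbp siRNA and Activin A at 25 ng/ml against 3 libraries with Vprbp siRNA and no addition. These 6 libraries were chosen by their titles, out of 15 in 5 groups of 3. The other groups, used here only for values side by side, were control siRNA without addition, with Activin A at 25 ng/ml, and with the receptor inhibitor SB (dose not given in the sources used here). All groups were in 4 days of differentiation, in medium without serum that held N2 and B27, and all came from 1 line at a passage below 20. ES-R1 is a cell line that began from the inner cell mass of the blastocyst. Both sides of the comparison carried the Vprbp siRNA, so it shows the response to Activin and not an effect of the knockdown. In the following, untreated and Activin replicates are those with Vprbp siRNA unless the control siRNA is named.

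Activin A is a ligand of the TGF-beta superfamily. It binds type II receptors, which activate type I receptors, which phosphorylate Smad2 and Smad3; these enter the nucleus with Smad4 and act with partners such as Foxh1. Nodal uses the same Smads and needs a coreceptor, and the pathway induces its own antagonists. In the mouse epiblast and its cultured stem cells, it is known for keeping cells from a neural fate and for inducing primitive streak and endoderm. Vprbp, also called Dcaf1, recruits substrates to the CRL4 ubiquitin ligase.

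Counts assigned to genes were 12.5 M to 15.5 M (M, mega) in the 6 libraries, and 14600 of 24451 genes were tested. Values are CPM, counts relative to the scaled library size. Embryonic stem cell markers (Pou5f1, Sox2, Nanog, Sall4, Utf1 and Dppa5a) summed to 3494 to 3625 CPM untreated and 3608 to 3741 CPM with Activin. Vprbp stood at 121, 132 and 114 CPM in untreated replicates 1, 2 and 3 and at 149, 131 and 135 CPM with Activin. These 2 groups overlapped, and the log2 fold change of 0.18 ± 0.06 (SE) did not pass (edgeR quasi-likelihood adjusted p = 0.12; all adjusted p-values are Benjamini-Hochberg values over the genes tested). Without untreated replicate 2, Vprbp was called higher with Activin (0.24, edgeR quasi-likelihood adjusted p = 0.042). All 6 libraries lay below the 167 to 184 CPM of the control siRNA libraries without SB. Activin replicate 1 lay apart from the other libraries on the second principal component, at -35.0. Among the 12718 genes whose mean log2 CPM was 1 or more, it held 82 genes at 2-fold or more above both other Activin replicates and 56 as far below, against 4 and 6 for replicate 2 and 30 and 14 for replicate 3. Untreated replicate 3 held 23 and 48 such genes, against 3 and 4 for replicate 1 and 13 and 14 for replicate 2.

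Activin changed 894 genes by edgeR's quasi-likelihood test at an adjusted p under 0.05, or 6.12% of those tested, of which 533 rose (3.65%) and 361 fell (2.47%). Most changes were small: 149 genes rose and 52 fell by 2-fold or more, 24 rose and 12 fell by 4-fold or more, and the median log2 change was 0.63 among the genes that rose and -0.48 among those that fell. Of the 894 genes, 871 (97.4%) had ranges that did not overlap between the 2 groups, as had 21.4% of all genes tested (11.2% higher and 10.2% lower). For any 1 gene alone, an exact permutation test of 3 against 3 cannot go below p = 0.1. The number called was 491, 1045 and 354 without untreated replicates 1, 2 and 3, and 715, 463 and 1151 without Activin replicates 1, 2 and 3, while 347 of the 894 remained called without untreated replicate 3. Fitted on these 6 libraries only, the comparison called 388. Of 100 genes of the lists or the naming rule that were called here, 49 were lost in that fit; of the 48 whose calls stood in each fit without 1 library, 8 were lost (Trim67, Rtp4, Irgm2, Olig3, Tbx3, Fgf15, Ttr and Ddx58).

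**Figure D1:**
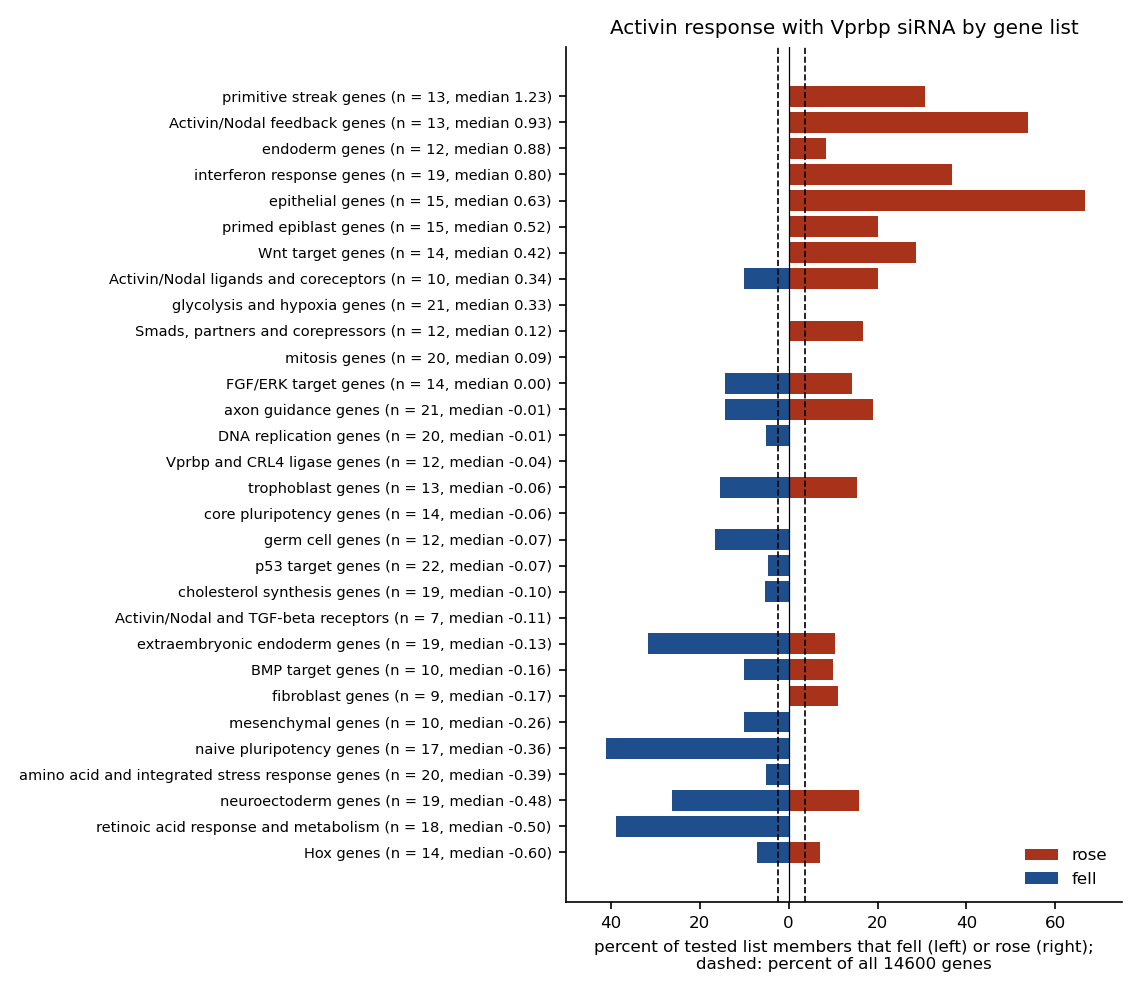
Percent of the tested members of 30 gene lists that rose (right, red) or fell (left, blue) with Activin under Vprbp siRNA, with the number tested and the median log2 fold change of each list; the dashed lines mark 3.65% and 2.47%, the shares over all 14600 genes. Epithelial and feedback genes have the longest bars to the right, and naive pluripotency and retinoic acid genes the longest to the left.

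Genes of the pathway's own feedback rose. Of 13 tested, 7 rose and 0 fell, with a median log2 fold change of 0.93 against -0.01 over all genes; among them were Pmepa1, Smad7, Lefty2, Foxh1, Nodal and Bambi. The count lay between 4 and 8 when any 1 of the 6 libraries was left out, at 4 without untreated replicate 1 or 3 or Activin replicate 2, and was 3 without Activin replicate 1 and untreated replicate 3 together. Without Activin replicate 1, 1 gene was called lower, the Activin-binding Fst (-2.07, edgeR quasi-likelihood adjusted p = 0.0021), which stood at -1.09 and did not pass with all libraries.

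Pmepa1, which encodes a membrane protein that limits the activation of Smad2 and Smad3, was at 40.5, 47.6 and 39.7 CPM in the untreated replicates and at 74.5, 83.0 and 87.1 CPM with Activin. Every Activin library lay above every untreated one, at a log2 fold change of 0.94 ± 0.09 (SE) and an edgeR quasi-likelihood adjusted p of 3.6e-06. Smad7, the inhibitory Smad, went from 64.9, 48.6 and 45.9 to 98.7, 91.1 and 114 CPM, again with no overlap (0.93 ± 0.17). The calls of both genes stood in each fit without 1 library, as did that of Foxh1, the DNA-binding partner of the Smads (0.38 ± 0.07).

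The antagonists Lefty1 and Lefty2 block Nodal and its coreceptor; as neighbouring paralogs on chromosome 1, at 180935022 to 180938401 and 180893108 to 180899107 (GRCm38), they may share reads. Lefty2 was at 74.6, 86.3 and 35.2 CPM untreated and at 284, 189 and 197 CPM with Activin (1.78 ± 0.41, edgeR quasi-likelihood adjusted p = 0.031). Its call was lost without untreated replicate 1 or 3 or Activin replicate 1 or 2, with adjusted p-values up to 0.11. Lefty1 was at 126, 153 and 56.1 CPM untreated and at 327, 262 and 263 CPM with Activin, and it did not pass (1.35 ± 0.38, edgeR quasi-likelihood adjusted p = 0.070). In both genes the groups did not overlap, and untreated replicate 3 was the lowest of the 6 libraries. The Nodal coreceptor gene Tdgf1 also had its lowest value in that library, at 308, 358 and 179 CPM untreated and 555, 586 and 533 CPM with Activin (0.99 ± 0.28, edgeR quasi-likelihood adjusted p = 0.064).

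Nodal itself (chromosome 10, 61417972 to 61425338, GRCm38) was at 83.2, 95.5 and 85.0 CPM untreated and at 104, 119 and 115 CPM with Activin. The groups did not overlap, but the rise was smaller than those of Pmepa1 or Smad7, at 0.36 ± 0.10 (edgeR quasi-likelihood adjusted p = 0.037). The call was lost in 4 of the 6 fits without 1 library, those without untreated replicate 1 or 3 or Activin replicate 2 or 3, with adjusted p-values up to 0.16. The 250 bases before its start site in RefSeq (GRCm38.p6, chr10:61417722-61417971, plus strand) are shown because Nodal is the ligand gene that its own pathway induces; promoters of 10 genes were looked up in the RefSeq table and 5 had an entry. The window held neither the 5-base Smad core CAGAC (or GTCTG), which 42.2% of 32851 promoter windows of that length held, nor the FoxH1 motif AATNCACA (or TGTGNATT), held by 3.18%.
Nodal: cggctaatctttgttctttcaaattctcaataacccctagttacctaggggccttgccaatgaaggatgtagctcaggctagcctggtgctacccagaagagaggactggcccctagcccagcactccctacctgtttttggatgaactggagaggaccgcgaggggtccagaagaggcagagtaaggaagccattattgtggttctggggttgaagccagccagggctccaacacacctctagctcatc

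**Figure D2:**
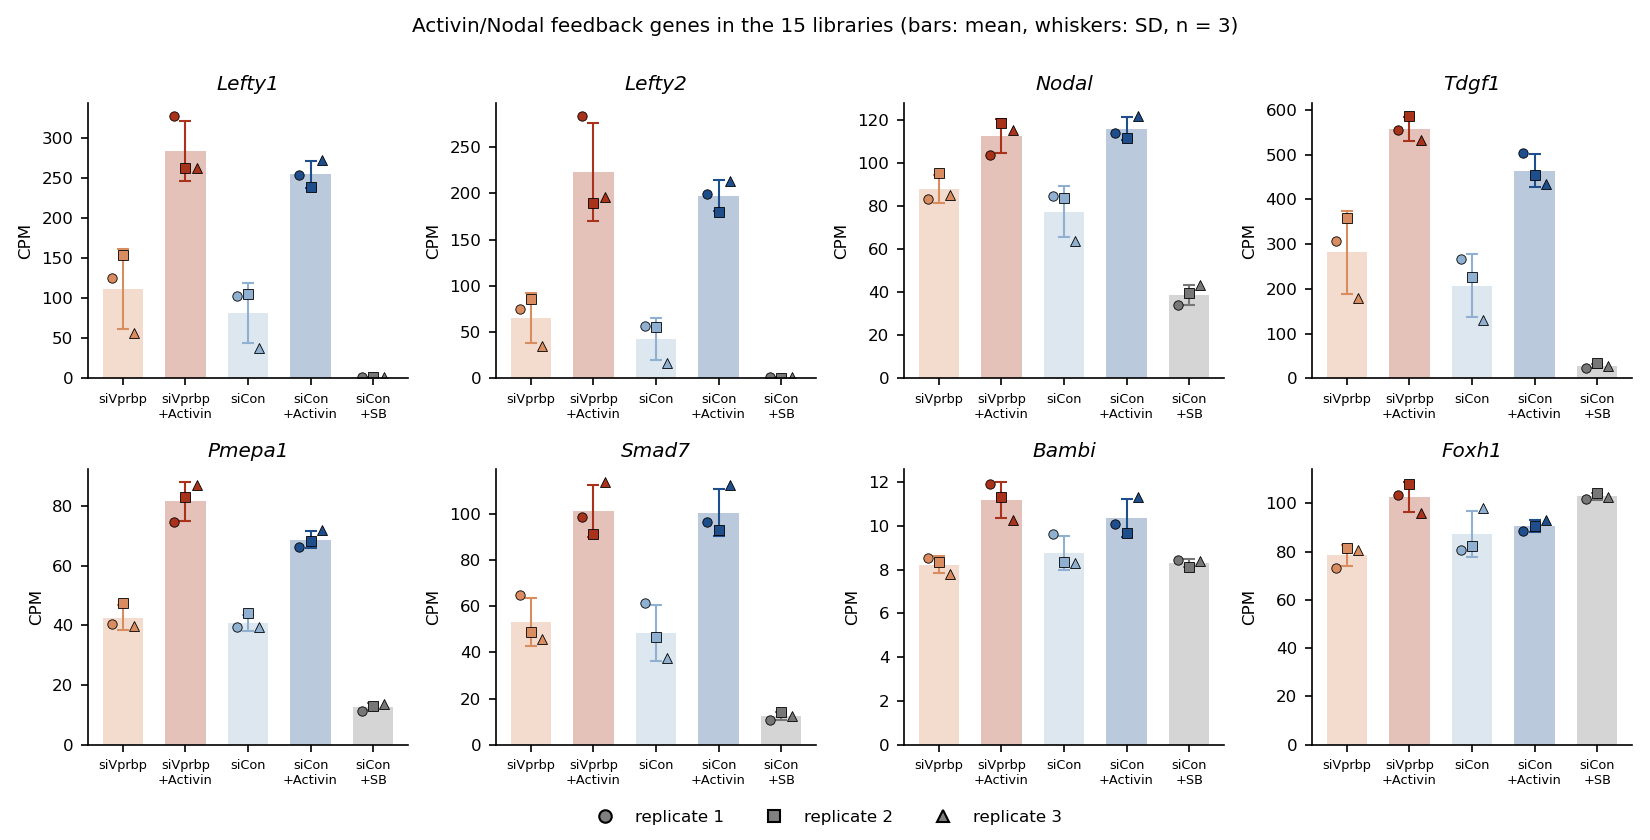
CPM of 8 feedback genes in the 15 libraries (points, shape by replicate), with the mean (bar) and SD (whisker, n = 3) of each group on axes that start at 0. With Vprbp siRNA, the 3 Activin points lie above the 3 untreated points in all 8 genes, and untreated replicate 3 (triangle) is the lowest of the 6 Vprbp siRNA points of Lefty1, Lefty2, Tdgf1, Pmepa1, Smad7 and Bambi.

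Other parts of the pathway moved less. Of 10 ligand and coreceptor genes, 2 rose (Nodal and Cfc1) and 1 fell, and 0 were called without untreated replicate 1 or 3. Cfc1, the second Nodal coreceptor gene, was at 0.687, 0.751 and 0.654 CPM untreated and at 12.2, 2.53 and 1.60 CPM with Activin. Activin replicate 1 was the highest by far; the log2 fold change was 2.93 ± 0.67 with it and 1.55 without it, and the call was lost without untreated replicate 1 or 3 (edgeR quasi-likelihood adjusted p-values up to 0.11). Inhbb, which encodes an Activin subunit, was at 80.7, 61.7 and 89.0 CPM untreated and at 52.9, 48.3 and 63.7 CPM with Activin; the groups overlapped, and the fall of 0.49 ± 0.12 on the log2 scale was lost in the 4 fits without untreated replicate 1 or 3 or Activin replicate 1 or 2 (edgeR quasi-likelihood adjusted p-values up to 0.12). None of 7 receptor genes passed, at a median of -0.11. Of 12 Smads, partners and corepressors, 2 rose, Foxh1 and the corepressor gene Tgif2 (0.31 ± 0.07, lost without untreated replicate 1 or 3 or Activin replicate 2, at adjusted p-values up to 0.076 by edgeR's quasi-likelihood test).

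Retinoic acid genes fell, and they held the smallest adjusted p-values among the 12 largest falls. Retinoic acid is a vitamin A derivative that binds nuclear receptors on DNA and promotes neural and germ cell fates. Of 18 genes of the response or its metabolism, 7 fell and 0 rose, with a median of -0.50, and 6 to 8 fell when any 1 library was left out. The receptor gene Rara, at 0.25, did not pass here but passed as higher with RLE factors (0.26) or library totals (0.25) and without Activin replicate 1 (0.34). Of the list, 1 gene also rose without a filter, with the filter of 1 CPM and with the replicate block, and 2 rose with DESeq2. Stra8, a gene named for its induction by retinoic acid and needed for meiosis, was at 158, 123 and 200.4 CPM untreated and at 34.5, 35.6 and 38.6 CPM with Activin. The highest Activin library stood far below the lowest untreated one, at -2.15 ± 0.15 (edgeR quasi-likelihood adjusted p = 3.6e-06). Meis1, a homeobox gene whose protein is a Hox cofactor, went from 11.5, 10.7 and 12.5 to 2.87, 2.82 and 3.12 CPM (-1.97 ± 0.16). Its replicates were tight in both groups, and it had the smallest adjusted p of the list, 1.0e-06 by the same edgeR test.

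The paralog Meis2 went from 56.2, 45.2 and 44.8 to 21.7, 14.9 and 20.1 CPM (-1.37 ± 0.14). Its groups lay apart as well. The binding proteins of retinoic acid inside the cell fell as well: Crabp1 went from 71.6, 49.0 and 59.4 to 14.4, 18.4 and 14.3 CPM (-1.93 ± 0.25) and Crabp2 from 16.9, 13.7 and 13.3 to 5.51, 4.62 and 3.68 CPM (-1.67 ± 0.30). The calls of these 5 genes stood in each fit without 1 library. The 11 members that did not pass included the retinoic acid degrading enzymes Cyp26a1 (0.82) and Cyp26b1 (-0.83) and the receptors Rara (0.25), Rarb (-0.21) and Rarg (-0.24). Without Activin replicate 1, Cyp26a1 was at -0.42.

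The windows of 250 bases before the RefSeq start sites of Stra8 (GRCm38.p6, chr6:34920698-34920947, plus strand) and Meis1 (chr11:19018970-19019219, minus strand) are shown because these were the 2 strongest members of the retinoic acid group; they were chosen after their values were seen. Capitals mark the half-site of the retinoic acid receptor, searched as AGGTCA or AGTTCA on both strands. Stra8 held 2, whose first bases lie 194 and 38 bases before the start, and Meis1 held 0, where 24.2% of all 32851 windows held at least 1.
Stra8: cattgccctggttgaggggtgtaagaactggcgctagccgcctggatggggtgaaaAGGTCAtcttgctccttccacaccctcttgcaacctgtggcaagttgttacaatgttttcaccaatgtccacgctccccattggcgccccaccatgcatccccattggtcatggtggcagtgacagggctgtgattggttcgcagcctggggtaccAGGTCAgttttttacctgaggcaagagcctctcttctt
Meis1: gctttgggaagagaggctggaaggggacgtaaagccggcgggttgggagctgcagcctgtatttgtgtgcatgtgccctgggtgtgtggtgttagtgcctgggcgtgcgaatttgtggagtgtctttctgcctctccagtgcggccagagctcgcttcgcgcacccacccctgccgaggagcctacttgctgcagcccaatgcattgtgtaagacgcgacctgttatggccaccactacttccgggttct

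Epithelial genes had the largest share of risen members of the 30 lists. Of 15 tested, 10 rose and 0 fell, at a median of 0.63, and 7 to 13 rose when any 1 library was left out. Without Activin replicate 1 and untreated replicate 3 together 5 rose. The adhesion gene Epcam was at 132, 166 and 142 CPM untreated and at 219.7, 226 and 186 CPM with Activin (0.52 ± 0.08). Cdh1, which encodes E-cadherin, was at 641, 771 and 756 CPM untreated and at 941, 1023 and 955 CPM with Activin (0.43 ± 0.07). In both genes the lowest Activin library exceeded the highest untreated one. The small GTPase gene Rab25 (1.14 ± 0.19), the splicing regulator Esrp1 (0.66 ± 0.11), the transcription factor Grhl2 (0.60 ± 0.11) and the tight junction gene Cldn3 (0.76 ± 0.15) also rose, and these 6 genes stayed called in each fit without 1 library. The claudins Cldn6 (0.94 ± 0.18) and Cldn7 (0.99 ± 0.21), the polarity gene Crb3 (0.63 ± 0.14) and the keratin Krt18 (1.24 ± 0.30) lost their calls in at least 1 such fit, with edgeR quasi-likelihood adjusted p-values up to 0.053, 0.056, 0.072 and 0.12. Cldn6, Cldn7 and Krt18 lost theirs without untreated replicate 3, Cldn7, Crb3 and Krt18 without untreated replicate 1, Crb3 and Krt18 without Activin replicate 2, and Krt18 also without untreated replicate 2. Of 10 mesenchymal genes 1 fell, Zeb1, a repressor of E-cadherin (-0.45 ± 0.09), and 3 fell without Activin replicate 1.

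**Figure D3:**
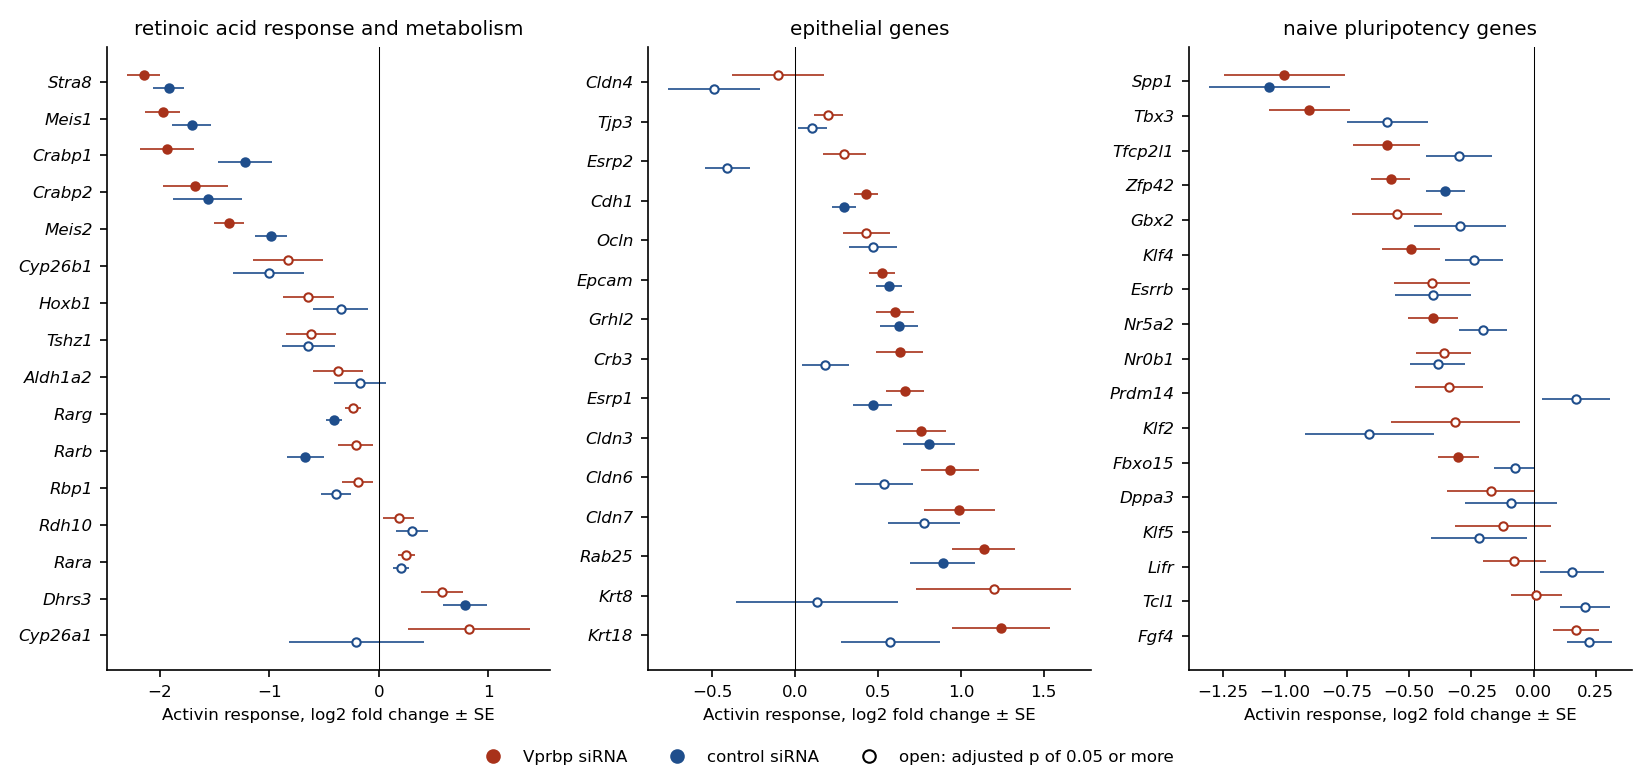
Log2 fold changes of the Activin response (± SE) for tested members of 3 gene lists, with Vprbp siRNA (red) and control siRNA (blue); filled points have an adjusted p under 0.05. Red points are filled for the 5 retinoic acid genes named and 7 naive genes, all left of 0, and for 10 epithelial genes, all right of 0.

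Genes of naive pluripotency, the state of the preimplantation epiblast, fell in 7 cases. Of the 17 tested, 0 rose, with a median of -0.36. The count was 3 and 2 without untreated replicates 1 and 3, 4 and 3 without Activin replicates 1 and 2, and 1 without Activin replicate 1 and untreated replicate 3 together; it was 3 in the fit of only the 6 libraries. Zfp42 (Rex1), a marker of naive cells, was at 185, 167 and 198 CPM untreated and at 132, 117 and 119 CPM with Activin, without overlap (-0.58 ± 0.08). Tbx3, a T-box factor, was at 119.8, 90.9 and 146 CPM untreated and at 60.1, 55.1 and 75.5 CPM with Activin (-0.90 ± 0.16). Both calls stood in each fit without 1 library, and these were the 2 that remained without untreated replicate 3. The other 5, Nr5a2, Tfcp2l1, Klf4, Fbxo15 and Spp1, fell by 0.30 to 1.00 on the log2 scale, and each lost its call in 3 to 5 of the 6 fits, always including that without untreated replicate 3, at edgeR quasi-likelihood adjusted p-values of up to 0.13. That library held the highest untreated value of all 5, as of Spp1, at 372 CPM against 221 and 200.3 CPM. Of 14 core pluripotency genes 0 passed, at a median of -0.06, but 2 were called higher and 1 lower without untreated replicate 2, 1 higher without Activin replicate 1, and 3 higher with DESeq2.

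Genes of the primed state, that of the postimplantation epiblast, rose in 3 of 15 cases, with 0 lower and a median of 0.52. The DNA methyltransferase gene Dnmt3b was at 311, 374 and 259 CPM untreated and at 775, 631 and 594 CPM with Activin (1.08 ± 0.12). The forkhead factor Foxd3 was at 19.6, 17.3 and 13.0 CPM untreated and at 49.5, 43.0 and 51.9 CPM with Activin (1.54 ± 0.25). Neither gene's groups overlapped, and both calls stood in each fit without 1 library. Fgf5 passed narrowly, at 20.5, 29.9 and 12.6 CPM untreated and 90.1, 56.0 and 50.5 CPM with Activin (1.65 ± 0.43, edgeR quasi-likelihood adjusted p = 0.049), and lost its call without untreated replicate 1 or 3 or Activin replicate 1 or 2, with adjusted p-values up to 0.19.

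Neuroectoderm genes moved both ways, with 5 lower and 3 higher of 19 and a median of -0.48; 3 were lower and 1 higher without untreated replicate 3, and 3 and 2 without Activin replicate 2, while 5 were lower and 0 higher in the fit of only the 6 libraries. Pax6, a regulator of the neural tube and eye, was at 27.0, 22.5 and 27.9 CPM untreated and at 8.94, 14.5 and 12.3 CPM with Activin (-1.11 ± 0.14). Sox1, the earliest neural plate marker of its family, was at 81.3, 71.7 and 69.2 CPM untreated and at 32.3, 36.0 and 47.5 CPM with Activin (-0.94 ± 0.12). Both lay apart between the groups, as did Insm1, a factor of neuronal differentiation (-1.34 ± 0.27), and the 3 calls stood in each fit without 1 library. Among the largest falls of all named genes were further regulators of neural cells: Olig3 from 14.3, 5.41 and 6.08 to 2.79, 0.722 and 2.29 CPM (-2.15 ± 0.46), Sox21 (-1.62 ± 0.19) and Nfix (-1.59 ± 0.28). Ptn, a growth factor gene, had the largest fall, from 11.8, 7.59 and 4.45 to 2.08, 0.939 and 0.624 CPM (-2.72 ± 0.50), and -3.32 without Activin replicate 1. Against these, the growth factor gene Fgf15 was at 26.5, 31.4 and 14.2 CPM untreated and at 69.9, 68.0 and 62.1 CPM with Activin (1.48 ± 0.21), and the intermediate filament gene Nes rose (0.84 ± 0.17), a call lost without untreated replicate 3 (edgeR quasi-likelihood adjusted p = 0.053). The summed level of 5 neural markers (Sox1, Pax6, Tubb3, Neurog2 and Dcx) was 148 to 173 CPM untreated and 87.0 to 108 CPM with Activin, with Neurog2 at 2, 0 and 0 counts untreated and at 0 in the Activin libraries. In bulk RNA, fewer cells of a type and less RNA per cell cannot be told apart.

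Primitive streak genes were highest in 1 Activin library. Of 13 genes, 4 rose and 0 fell: T, Fgf8, Sp5 and Eomes, with a median of 1.23 over the list. The median was 0.40 without Activin replicate 1, with 3 genes called. Without untreated replicate 3, 0 were called, against 1 without untreated replicate 2 and 2 without untreated replicate 1. The count was 5 and 6 without Activin replicates 2 and 3, and 3 without Activin replicate 1 and untreated replicate 3 together. In the fit of only the 6 libraries 0 were called. T (brachyury), the defining factor of early mesoderm, was at 7.03, 4.96 and 4.06 CPM untreated and at 71.9, 19.1 and 15.7 CPM with Activin. All 3 Activin libraries exceeded the untreated ones, and replicate 1 stood well above the other 2; the log2 fold change was 2.73 ± 0.58 with it and 1.72 without it, and the call was lost without any 1 of the untreated replicates (edgeR quasi-likelihood adjusted p-values up to 0.11).

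Fgf8, a growth factor of the streak, was also highest in Activin replicate 1, at 3.44, 4.13 and 2.36 CPM untreated and 24.1, 8.52 and 8.81 CPM with Activin (2.06 ± 0.41, and 1.40 without Activin replicate 1). Its call was lost without untreated replicate 3 (edgeR quasi-likelihood adjusted p = 0.069). Eomes, a T-box factor that acts in mesoderm and endoderm formation, was at 13.6, 10.1 and 10.7 CPM untreated and at 43.4, 17.3 and 18.5 CPM with Activin (1.19 ± 0.31), and its call was lost without any 1 untreated replicate (adjusted p-values up to 0.19 by edgeR's quasi-likelihood test). Sp5, a Wnt target and streak factor, had 1.71 ± 0.42, or 0.96 without Activin replicate 1, where its call was lost, as without untreated replicate 2 or 3 (edgeR quasi-likelihood adjusted p-values up to 0.12).

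Of 12 endoderm genes, 1 passed, Cldn6, which the epithelial list also holds. With DESeq2 5 rose, and 0 in the fit of only the 6 libraries. The list is not particular to definitive endoderm, as Foxa2, Sox17, Gata6, Gata4 and Sox7 are also in the list of extraembryonic endoderm genes. Sox17, a defining factor of endoderm, was at 2.37, 2.55 and 3.34 CPM untreated and at 21.6, 3.03 and 2.57 CPM with Activin. Foxa2, the forkhead factor of endoderm and node, had 1.37, 0.826 and 3.01 CPM untreated and 23.2, 4.04 and 2.91 CPM with Activin. The node gene Lhx1 had 0.993, 0.751 and 4.71 CPM untreated and 48.3, 3.25 and 2.36 CPM with Activin, and Cer1, a secreted antagonist of Nodal, had 0.611, 0.977 and 2.68 CPM untreated and 51.3, 6.14 and 2.77 CPM with Activin. In Sox17, Foxa2 and Lhx1 the groups overlapped, and in all 4 genes Activin replicate 1 alone was far above the rest. Over the 12 the median was 0.88 with all libraries and 0.10 without Activin replicate 1, where 1 rose and 1 fell. Without untreated replicate 3 none of the 12 was called, and 2 and 3 rose without untreated replicate 2 and Activin replicate 3. The summed level of 4 streak markers (T, Mixl1, Eomes and Gsc) was 127, 38.6 and 36.2 CPM in Activin replicates 1, 2 and 3 against 15.9 to 22.1 CPM untreated; whether replicate 1 held more differentiated cells was not tested.

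**Figure D4:**
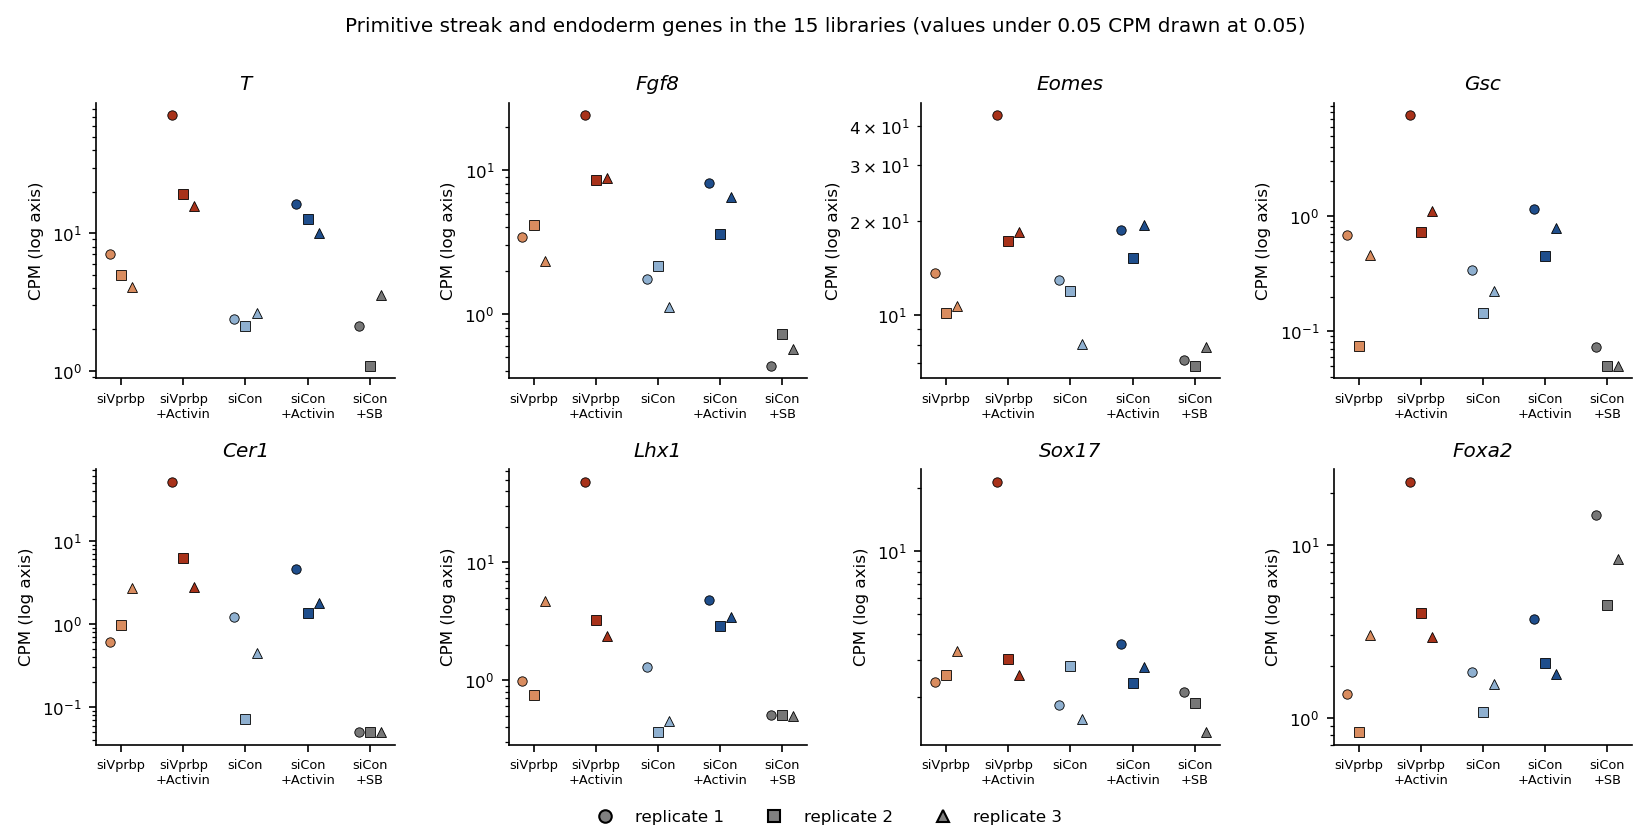
CPM on log axes of 8 primitive streak and endoderm genes in the 15 libraries (points, shape by replicate; values under 0.05 CPM drawn at 0.05). In each gene the circle of Activin replicate 1 with Vprbp siRNA is the highest of the 15 points.

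Genes of neighbouring signals moved with the streak genes in part. Of 14 Wnt targets, 4 rose and 0 fell, of which T and Sp5 belong to the streak list too; the others were Tcf7 (0.48 ± 0.11), a transcription factor of the pathway, and the receptor Lgr5 (2.65 ± 0.76, and 1.41 without Activin replicate 1). The count was 0 without untreated replicate 3, 1 without untreated replicate 1, and 2 without untreated replicate 2 or Activin replicate 1, and it was 0 in the fit of only the 6 libraries; Tcf7 was also lost without Activin replicate 2, at an edgeR quasi-likelihood adjusted p of up to 0.080, and Lgr5 at up to 0.29. Lgr5 had low counts: with the filter of 1 CPM in at least 3 libraries it was not tested, and 3 of 13 Wnt targets rose. Genes of secreted proteins of the BMP pathway were also among the 12 largest rises. Bmp2, a BMP ligand, was at 1.60, 1.5 and 1.44 CPM untreated and at 16.2, 5.27 and 2.29 CPM with Activin (2.37 ± 0.59, and 1.32 without Activin replicate 1), and its call was lost without any 1 untreated replicate (edgeR quasi-likelihood adjusted p-values up to 0.16). Nog, which encodes the BMP antagonist noggin, was at 1.37, 1.05 and 1.05 CPM untreated and at 7.66, 4.19 and 2.22 CPM with Activin (2.00 ± 0.38), a call that stood in each fit without 1 library. Of 10 BMP targets, 1 rose, Bambi, which encodes a decoy receptor (0.44 ± 0.13, lost in 5 of the 6 fits, all but that without Activin replicate 3, at edgeR quasi-likelihood adjusted p-values up to 0.18), and 1 fell, Id2 (-0.95 ± 0.26, lost in 4 fits, without untreated replicate 1 or 2 or Activin replicate 2 or 3, at up to 0.16).

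Interferon response genes, which act against viruses, rose in 7 of 19 cases with 0 lower and a median of 0.80, and in 4 cases without untreated replicate 1 or 3 or Activin replicate 1 or 2 and 10 cases without untreated replicate 2 or Activin replicate 3. In the fit of only the 6 libraries 2 rose. The nucleic acid sensor Zbp1 was at 1.45, 2.25 and 0.654 CPM untreated and at 6.47, 8.09 and 4.93 CPM with Activin (2.17 ± 0.36). The GTPase gene Irgm2 was at 4.28, 9.54 and 2.49 CPM untreated and at 25.9, 23.5 and 17.4 CPM with Activin (2.05 ± 0.35, and 2.73 without untreated replicate 2). Untreated replicate 3 was the lowest library of both genes, and the groups did not overlap. Bst2, which tethers virus particles (0.73 ± 0.12), and the RNA sensor Ddx58 (0.80 ± 0.16) rose as well, and these 4 calls stood in each fit without 1 library. Gbp2, Ifih1 and Irgm1 lost theirs in 4 of the 6, without untreated replicate 1 or 3 or Activin replicate 1 or 2, with edgeR quasi-likelihood adjusted p-values up to 0.11, 0.20 and 0.12. Rtp4 (2.28 ± 0.42, and 3.10 without untreated replicate 2) and Ddx60 (2.12 ± 0.47, lost without Activin replicate 2 at an edgeR quasi-likelihood adjusted p of 0.052), both interferon-induced but outside the list, were among the 12 largest rises.

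Markers of other cell types gave no single direction. Of 19 extraembryonic endoderm genes, 2 rose (Dab2 and Ttr) and 6 fell, mostly genes of the basement membrane; 1 rose and 1 fell in the fit of only the 6 libraries. Lama1, a laminin chain, was at 102, 96.8 and 116 CPM untreated and at 42.2, 46.9 and 59.0 CPM with Activin (-1.09 ± 0.14), a call that stood in each fit without 1 library. Its partners Lamc1, Col4a1, Col4a2 and Sparc, and the protease gene Plat, fell by 0.27 to 0.80 on the log2 scale, and each lost its call in 1 to 5 fits, so that 2 of the list fell without untreated replicate 3 or Activin replicate 2. Dab2, an endocytic adaptor, was at 42.4, 49.4 and 46.1 CPM untreated and at 72.4, 76.3 and 75.2 CPM with Activin (0.70 ± 0.11). Ttr, which encodes the carrier protein transthyretin, was at 0, 0.301 and 0 CPM untreated and at 2.47, 0.939 and 0.694 CPM with Activin (edgeR quasi-likelihood adjusted p = 0.0066), and the untreated values are too close to 0 for a fold change. The 7 defining markers (Gata4, Gata6, Sox7, Sox17, Dab2, Afp and Ttr) summed to 82.0 to 95.3 CPM untreated and 109 to 150 CPM with Activin, highest in Activin replicate 1. Dab2 was a large part of this sum, so the sum does not show a rise of the set. Gata4 (-0.13), Gata6 (-0.13) and Sox7 (-0.04) did not pass, nor did Sox17 (1.69, and 0.02 without Activin replicate 1). Trophoblast markers (Cdx2, Elf5, Gata3, Hand1 and Tfap2c) summed to 130 to 138 CPM untreated and 83.8 to 90.5 CPM with Activin, with Elf5 at 4, 0 and 0 counts untreated and at 0 in the Activin libraries. Of 13 trophoblast genes, 2 rose (Krt18 and Eomes, which other lists also hold) and 2 fell (Tfap2c and Peg10), but 0 rose and 1 fell without any 1 of the untreated replicates and in the fit of only the 6 libraries, and 1 rose and 1 fell without Activin replicate 2. Of 12 germ cell genes, 0 rose and 2 fell, Stra8 and Tfap2c. Most of the trophoblast marker sum was Tfap2c, a factor shared with germ cells, at 129, 124 and 131 CPM untreated and 81.2, 80.5 and 87.2 CPM with Activin (-0.63 ± 0.09). The 8 fibroblast markers summed to 52.1 to 60.4 CPM untreated and 47.9 to 57.6 CPM with Activin, with Dcn alone called (2.12 ± 0.59, and lost without untreated replicate 3 or Activin replicate 1 or 2, at edgeR quasi-likelihood adjusted p-values up to 0.16).

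The other large rises lay outside these lists. Trim67, a ubiquitin ligase gene, was at 3.13, 4.21 and 0.458 CPM untreated and at 19.6, 11.3 and 12.9 CPM with Activin (2.52 ± 0.48). Calcr, the calcitonin receptor gene, was at 2.06, 3.08 and 0.785 CPM untreated and at 9.58, 7.51 and 6.31 CPM with Activin (2.00 ± 0.31). Both calls stood in each fit without 1 library, and untreated replicate 3 was the lowest value of both. Enpp2, which makes lysophosphatidic acid (2.41 ± 0.50, and 3.19 without untreated replicate 2), and the pepsinogen gene Pga5 (2.00 ± 0.41, and 1.3 without Activin replicate 1) lost their calls without untreated replicate 1 or 3, and Enpp2 also without Activin replicate 2, at edgeR quasi-likelihood adjusted p-values up to 0.075 and 0.070. The falls of Greb1l (-1.26 ± 0.13) and of the noncoding Hotairm1 (-1.29 ± 0.20), which may share reads with a gene that it overlaps, complete the 12 largest.

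The same Activin treatment with control siRNA, on 6 other libraries, gave 705 calls (4.83%), 431 higher (2.95%) and 274 lower (1.88%). Of the 533 genes that rose with Vprbp siRNA, 258 also rose with control siRNA, which is 48.4% of the former and 59.9% of the latter. Of the 361 that fell, 128 fell with control siRNA, or 35.5% and 46.7%, and 0 genes were called in opposite directions. Counting all calls, the shared ones included, 530 of the 533 were higher and 351 of the 361 lower with control siRNA. Of all genes tested, 70.0% shared a sign. Across 14600 genes, which are not independent replicates, the log2 fold changes had r = 0.65 and rho = 0.56. Same-numbered untreated libraries of the 2 siRNAs deviated together from their group means, at correlations of 0.12, 0.20 and 0.37. What part this had in the agreement of the 2 responses was not tested. The 386 genes called with both siRNAs had median sizes of 0.67 with Vprbp siRNA and 0.65 with control siRNA, and 212 of them were larger with Vprbp siRNA.

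The difference between the 2 responses, tested as an interaction, gave 0 calls by edgeR's quasi-likelihood test and 0 by DESeq2. At an unadjusted p under 0.05, 517 of 14600 genes differed, the smallest adjusted p was 0.999, and the median standard error of the difference was 0.17 on the log2 scale. The 508 genes called with Vprbp siRNA alone are therefore not shown to differ from control siRNA. Of them, 84 had an unadjusted difference p under 0.05, against the 517 of all 14600 genes. The 508 were selected by values that enter the difference, so the 84 are no sign of one. Without Activin replicate 1, untreated replicate 3 and replicate 3 of untreated control siRNA together, 1 gene was called, the signal gene Wnt8a, with a difference (Vprbp minus control siRNA) of -1.54 ± 0.24 and an adjusted p of 0.010 by edgeR's quasi-likelihood test. With all libraries it was at -0.48 with Vprbp siRNA and 0.53 with control siRNA and was not called.

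Among genes whose mean log2 CPM was 1 or more, unnamed gene models left out, 5 had the smallest unadjusted p of the difference. These were Muc1, Il3ra, Esrp2, Slco4c1 and Tmeff1, at 0.0013 to 0.0016 by edgeR's quasi-likelihood test. Muc1, an epithelial mucin gene, was at 0.28 with Vprbp siRNA and -0.92 with control siRNA, and the splicing regulator Esrp2 at 0.30 and -0.41. Of the genes described above, Foxh1 was at 0.38 and 0.06 and Tfap2c at -0.63 and -0.27. Their unadjusted p-values of the difference by edgeR's quasi-likelihood test were 0.0054 and 0.011. Both genes were named by their p with Vprbp siRNA, which draws on values that enter the difference, and neither difference passed after adjustment. Of the feedback genes called with both siRNAs, Pmepa1 was at 0.94 and 0.75, Smad7 at 0.93 and 1.05, Lefty2 at 1.78 and 2.20 and Nodal at 0.36 and 0.58, each first with Vprbp and then with control siRNA, with unadjusted p-values of the difference between 0.13 and 0.62. The retinoic acid genes had -2.15 and -1.92 (Stra8), -1.97 and -1.71 (Meis1) and -1.93 and -1.22 (Crabp1), and 8 of the 18 fell and 1 rose with control siRNA. The epithelial list had 6 risen genes of 15 with control siRNA and the naive list 2 fallen genes of 17, with medians of 0.47 and -0.24, and the interferon list had 9 of 19.

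**Figure D5:**
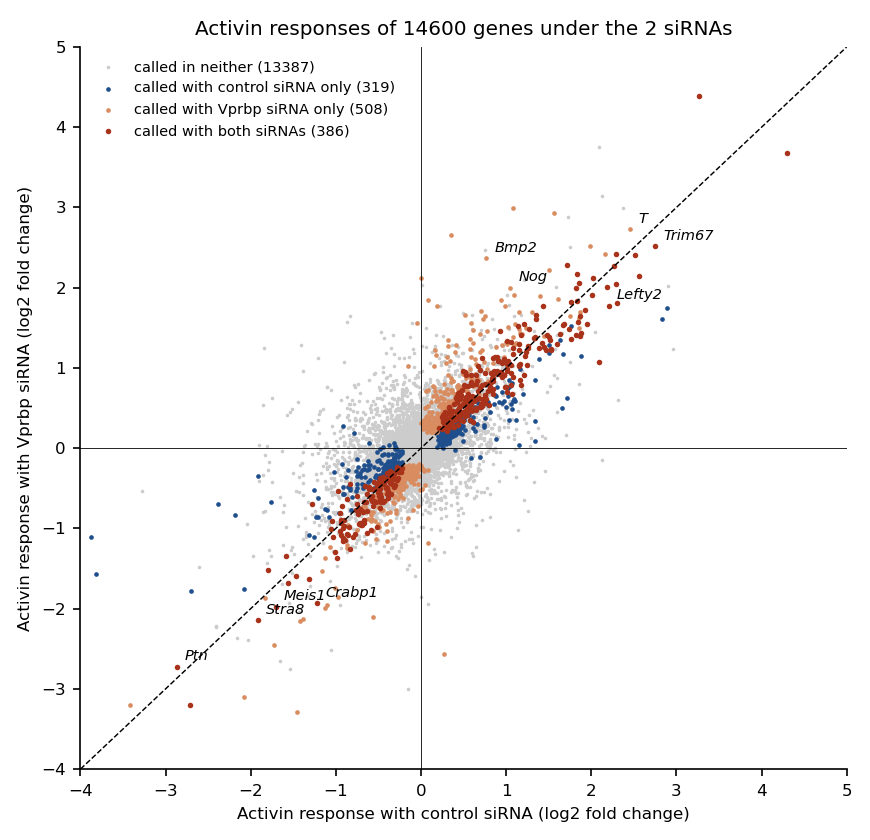
Log2 fold change with Activin of 14600 genes under Vprbp siRNA (vertical axis) against control siRNA (horizontal axis), coloured by where each was called, with the line of equal response dashed; 3 genes lie outside the drawn range. The 386 genes called under both siRNAs lie in the lower left and upper right quadrants.

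The receptor inhibitor SB, given with control siRNA on libraries that the Vprbp siRNA comparison does not use, called 3294 genes (22.6%), 1642 higher (11.2%) and 1652 lower (11.3%). Of the 533 genes that rose with Activin under Vprbp siRNA, 197 fell with SB (37.0% of the former, 11.9% of the latter) and 42 rose (7.88% and 2.56%). Of the 361 that fell, 126 rose with SB (34.9% and 7.67%) and 48 fell (13.3% and 2.91%). Stra8, Meis1, Sox21, Nfix, Pax6 and Greb1l fell with Activin and rose with SB, by 1.01, 0.95, 1.00, 2.61, 0.73 and 1.12 on the log2 scale. Meis2 (-0.06) and Crabp1 (0.23) fell with Activin but did not pass with SB. Sox1, Insm1 and Hotairm1 fell with both, at -0.88, -0.82 and -0.95 with SB. Dnmt3b, at 0.05 with SB, and the endocytic gene Dab2, at 0.29, rose with Activin without passing under SB. Ddx58 and Foxh1 rose with both, by 1.39 and 0.24 with SB. Foxh1 was the exception among the 13 feedback genes, of which 8 fell and 1 rose with SB, at a median of -1.69. Of the 17 naive genes, 5 fell and 1 rose with SB, at a median of -0.16, so more fell than rose with either treatment.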

How the data were processed

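RNA sequencing libraries of ES-R1 cells were compared at the level of genes. The authors deposited fragment counts per gene symbol, without normalization; the submitters' processing notes name HTSeq 0.6.1p1 and mm10. With aligner, annotation and strand setting not given in the sources used here, antisense and overlapping genes cannot be told apart. Of 24456 rows, 5 tallies were left out; 10.3% to 16.0% of fragments fell outside genes. From the deposited counts, edgeR 4.0.16 (R 4.3.3) kept genes passing filterByExpr (minimum count 10), scaled them by TMM and fitted all 15 libraries with 1 mean per group (robust glmQLFit and glmQLFTest, Benjamini-Hochberg over 14600 genes, threshold 0.05). Fold changes are given with an approximate standard error, their size divided by the square root of the F statistic of the edgeR test. The spread in it draws on all 15 libraries. The biological coefficient of variation was 8.76%. A gene is said to rise or fall only past the threshold. The limit that a count of 0 allows was 0.196 to 0.271 CPM by library (3 counts), for counting error only.

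Groups came from titles, and columns were matched by the numbers in the sample descriptions. Whether replicates came from separate cultures is not stated in the labels, and p-values then cover only the spread between these libraries, possibly technical; every replicate pair differed by more than sampling noise (chi-square per degree of freedom 2.73 to 15.7). Members, gene lists and tests were chosen with earlier results of these data known. Lists are described by counts and medians, without a test. By rule, the text names the 12 largest rises and falls among called genes whose ranges did not overlap, and the 5 genes with the smallest p of the difference. Both were taken from genes whose mean log2 CPM was 1 or more, leaving out unnamed gene models. The rule adds up to 4 members with the smallest p of each list, and Vprbp, Lefty1, Lefty2, Nodal, Smad7, Pmepa1 and T. Further list members were named after their values were seen. RefSeq symbols (GRCm38.p6) matched 23249 genes directly and 1078 by synonym. The alternatives were RLE factors or library totals, no filter or 1 CPM in at least 3 libraries, a replicate block, DESeq2 1.42.0, a test against a 1.5-fold change, a fit of only the libraries compared, and leaving out each library. The procedure was tested on simulated data. Results for some list members are not reported here by name; the counts and medians of lists include them.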

Additional observations from a re-analysis of the deposited data

How the results depend on the processing

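The 894 calls of the Activin response with Vprbp siRNA became 895 with RLE factors, 874 with library totals, 874 without a filter, 898 with a filter of 1 CPM and 1075 with DESeq2, which kept 886 of the 894. A fit of only the 6 libraries called 388 (253 higher, 135 lower), and the test against a 1.5-fold change called 38 (26 and 12), 19 with control siRNA and 446 with SB. Leaving out 1 library gave 354 to 1151 calls (231 to 625 higher, 123 to 526 lower), 263 to 741 with control siRNA and 2411 to 3421 with SB. Leaving out Activin replicate 1 and untreated replicate 3 together, an alternative added after seeing the data, gave 393 (240 and 153), with 340 of the 894 kept. The difference between the 2 Activin responses stayed at 0 calls in these alternatives, except 1 (Wnt8a) without 3 libraries that lay apart. Id1 was at 0.08 with all libraries and lay between -0.92 and 0.41 with 1 library left out; it turned to -0.92 without Activin replicate 1 and to -0.97 without that library and untreated replicate 3, both called. The replicate block gave 1193 calls with Vprbp siRNA (687 and 506) and 1058 with control siRNA; deviations of same-numbered Activin and untreated libraries correlated at -0.006, 0.07 and 0.03 with Vprbp siRNA and 0.05, 0.010 and 0.04 with control siRNA, so the numbers were not taken to pair the libraries of either Activin comparison. Same-numbered untreated libraries of the 2 siRNAs correlated at 0.12, 0.20 and 0.37, and same-numbered Activin libraries of the 2 siRNAs at 0.18, -0.0003 and 0.03. Neither Activin comparison sets these against each other, but the test of the difference between the responses and their agreement do. The test of the difference gave 0 calls with the replicate block too. By list, the block gave 6 higher glycolysis genes against 0 and 2 higher core pluripotency genes against 0. DESeq2 gave 2 and 3 of these, 5 risen endoderm genes against 1, and 10 fallen naive genes against 7. The cause of these shifts was not tested. With 3 libraries a group, small changes of genes at low counts are the hardest to call.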

Other observations

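Axon guidance genes moved both ways with Activin under Vprbp siRNA, with 4 higher and 3 lower of 21 and a median of -0.01. The netrin receptor gene Unc5b was at 87.5, 99.1 and 85.2 CPM untreated and at 186, 171 and 156 CPM with Activin (0.92 ± 0.08, adjusted p = 1.5e-06 by edgeR's quasi-likelihood test), one of the smallest p-values among the listed genes. With control siRNA it was at 0.58, and the unadjusted p of the difference was 0.0073 by the same test. Unc5b was named by its p with Vprbp siRNA, which draws on values that enter the difference. The difference did not pass after adjustment. The guidance ligand gene Slit3 rose (0.83 ± 0.13) and the ephrin receptor gene Epha4 fell, from 100.1, 92.0 and 101 to 69.0, 70.1 and 84.1 CPM (-0.39 ± 0.08). These 3 calls stood in each fit without 1 library; the calls of Epha7, Efna1, Robo2 and Sema6a did not, so that 2 rose and 1 fell without untreated replicate 1 or 3 or Activin replicate 2, and 2 rose and 5 fell without Activin replicate 1.

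Targets of FGF/ERK signalling split, with 2 higher and 2 lower of 14. The feedback inhibitor Spry1 was at 70.9, 74.8 and 61.8 CPM untreated and at 104, 112 and 103 CPM with Activin (0.62 ± 0.09), while a relative of the Sprouty genes, Spred1, was at 165, 159 and 159.8 CPM untreated and at 117, 114 and 123 CPM with Activin (-0.45 ± 0.08). Spry1 had 0.68 with control siRNA, and Spred1 had -0.08, with an unadjusted difference p of 0.0027 by edgeR's quasi-likelihood test. Spred1 was named by its p with Vprbp siRNA, which draws on values that enter the difference. The difference did not pass after adjustment. Of the other 2, Myc (0.61 ± 0.13) lost its call without untreated replicate 3 (edgeR quasi-likelihood adjusted p = 0.067), and Dusp4 (-0.43 ± 0.11) lost its call in 4 of the 6 fits (adjusted p-values up to 0.14), so that 1 was higher and 1 lower without untreated replicate 3.

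Lists of the cell cycle, stress and metabolism held 0 or 1 called gene each, where 6.12% of all genes tested were called: 0 of 20 mitosis genes, 1 of 20 DNA replication genes (Rrm2, -0.23), 1 of 22 p53 targets and 1 of 20 genes of the amino acid and integrated stress response (Sesn2, -0.38, in both lists), 1 of 19 cholesterol synthesis genes (Hsd17b7, -0.50), 0 of 12 Vprbp and CRL4 ligase genes and 0 of 21 glycolysis and hypoxia genes, whose median was 0.33. The calls of Rrm2, Sesn2 and Hsd17b7 were lost without untreated replicate 3, at edgeR quasi-likelihood adjusted p-values of up to 0.059, 0.073 and 0.15, and that of Hsd17b7 also without untreated replicate 1 or Activin replicate 1 or 2. Without untreated replicate 2, 3 stress response genes and 2 cholesterol genes fell, and 2 p53 targets fell without Activin replicate 3. Untreated replicate 3, the library whose omission lowers the number of calls most, differed from its group in some of these genes, which were picked after their values were seen. The stress response gene Trib3 was at 50.8 CPM in it against 21.5 and 15.8 CPM in the other untreated replicates and 16.5 to 17.1 CPM with Activin, and Ddit3 was at 33.2 CPM against 9.62 and 9.39 CPM. The glycolytic gene Ldha was at 252 CPM in it against 518 and 519 CPM. The part of these shifts in the results was not tested.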
